A study of Mus musculus with 69 samples.

Results

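The comparison described here sets SPRET bone marrow-derived macrophages (BMDMs) after 6 hours of IL-4 against the same kind of cells without it. It rests on 4 of the 69 samples of the series, 2 RNA-seq libraries at 6 hours and 2 basal ones, which were chosen by the strain and time in their labels and not by any measured value. The mice were SPRET/EiJ, an inbred strain derived from wild Mus spretus, and carried no engineered allele. Per the labels, bone marrow in all groups was kept for 7 days in M-CSF medium to give macrophages, which were then left untreated (basal) or given 20 ng/ml recombinant mouse IL-4. The same time course also holds SPRET libraries at 1 and 24 hours and C57BL/6J (C57) libraries at 0, 1, 6 and 24 hours, 2 libraries per group and 16 in all, while a separate set of SPRET libraries, 3 basal and 3 at 24 hours of IL-4, comes from a panel of 5 strains. The study used young adult female mice. The paper describes its RNA-seq libraries as biological replicates. Whether the 2 libraries of a group came from separate animals or cultures is not in the labels. The p-values therefore measure only the spread between these libraries, which need not be that between animals.

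IL-4 is a cytokine of type 2 immunity. It binds the receptor chain IL4RA, Janus kinases on the receptor chains phosphorylate STAT6, and STAT6 dimers enter the nucleus and activate genes with a palindromic site. In macrophages this gives the state known as alternative activation, marked by arginase, mannose receptor and eotaxin-type chemokines, and it lowers part of the inflammatory programme.

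The 6-hour libraries held 14.95 M and 5.70 M tags, and the second is the shallowest of the 16. The basal libraries held 12.8 M and 17.8 M tags. Expression was deposited as TPM (reads scaled for transcript length and library size) for 24537 genes. A gene was tested if it had at least 1 TPM in at least 2 of the 16 libraries, which left 12088 genes, and fold changes are differences of log2(TPM + 1), which understate the change of low genes. Across these genes replicate libraries correlated with Pearson's r of 0.989 at basal and 0.990 at 6 hours. All 10 macrophage markers examined were detected and summed to between 51547 and 54096 TPM at basal and between 44911 and 46602 TPM at 6 hours, with Lyz2 the highest. Markers of T cells summed to at most 5.63 TPM (Cd3e and Cd3g at 0), of B cells to 0.666, of fibroblasts to 2.32 (Col1a2 and Col3a1 at 0), of NK cells to 2.76 (Ncr1 and Prf1 at 0) and of erythroid cells to 0.483 (the 4 globin genes at 0). Neutrophil markers summed to between 64.7 and 73.6 TPM, nearly all of it S100a8, with S100a9 and Ly6g at 0, and mast cell or basophil markers to between 14.9 and 21.9 TPM, mostly Mcpt8. The sum of the 4 dendritic cell markers went from 1.21 and 2.25 TPM to 5.26 and 5.84 TPM, mostly through Zbtb46, the 1 marker of the 4 that was called, and Siglech was at 0. The part of these markers in the results was not tested. Values of 0 are as listed, and the assignment of reads to these marker genes was not tested either. In bulk libraries like these, fewer cells of a type and less RNA per cell cannot be told apart.

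IL-4 for 6 hours induced 340 of these genes (2.81%) and repressed 212 (1.75%), at a fold change over 2 and a Benjamini-Hochberg adjusted p under 0.05 from limma, in a single model of the 16 libraries. Without the fold threshold, 2038 genes were higher (16.9%) and 1662 lower (13.7%). The induced genes rose by a median of 1.47 on the log2 scale, from a median level of 7.54 TPM to 28.6 TPM, and 86 of them rose more than 4-fold. The repressed genes started higher, at a median of 21.1 TPM, and reached 6.58 TPM, with a median log2 change of -1.29, and 24 fell more than 4-fold. The change had a median of 0.02 over all genes tested.

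**Figure D1:**
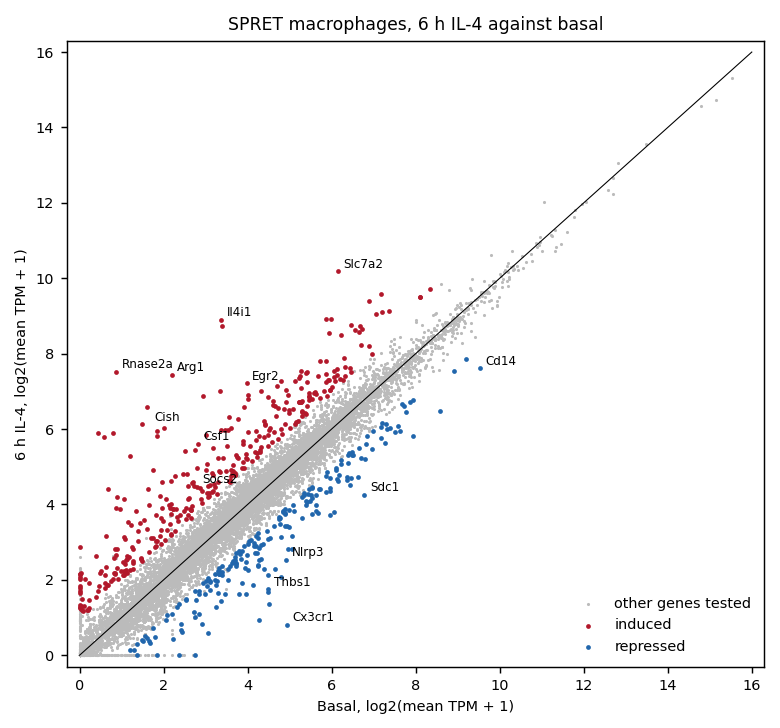
Each point is 1 of the 12088 genes tested in SPRET macrophages, with log2(mean TPM + 1) of the 2 basal libraries on the x axis and of the 2 libraries at 6 hours of IL-4 on the y axis, and the line marks equal levels. The 340 induced genes (red) lie above the line and reach further from it than the 212 repressed genes (blue).

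The promoters of the leading induced genes differ in whether they hold a STAT6-type motif. The 250 bases before the start of each gene in the reference genome (RefSeq, GRCm38.p6, which is the C57 sequence and does not show SPRET variants) were searched for TTC and GAA with any 4 bases between them, a spacing that STAT6 binds, which reads the same on both strands. Of the 15 genes most induced at 6 hours, 12 had a promoter in the table and 3 of these held the motif. These 3 are printed because they are the strongly induced genes found with the motif, shown with the motif in capitals and the last base next to the start of the gene.
Plekhf1 (chr7:38227995-38228244, - strand): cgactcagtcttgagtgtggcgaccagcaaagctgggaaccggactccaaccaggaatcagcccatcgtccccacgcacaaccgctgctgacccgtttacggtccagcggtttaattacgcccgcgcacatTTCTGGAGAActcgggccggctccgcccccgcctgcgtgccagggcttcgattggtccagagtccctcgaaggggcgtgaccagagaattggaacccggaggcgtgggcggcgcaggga
Tmem26 (chr10:68723496-68723745, + strand): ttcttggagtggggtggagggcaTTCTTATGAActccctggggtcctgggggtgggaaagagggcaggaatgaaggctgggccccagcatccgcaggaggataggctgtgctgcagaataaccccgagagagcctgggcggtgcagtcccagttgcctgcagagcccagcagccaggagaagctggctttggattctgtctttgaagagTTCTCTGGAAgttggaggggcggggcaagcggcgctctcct
Pdcd1lg2 (chr19:29410669-29410918, + strand): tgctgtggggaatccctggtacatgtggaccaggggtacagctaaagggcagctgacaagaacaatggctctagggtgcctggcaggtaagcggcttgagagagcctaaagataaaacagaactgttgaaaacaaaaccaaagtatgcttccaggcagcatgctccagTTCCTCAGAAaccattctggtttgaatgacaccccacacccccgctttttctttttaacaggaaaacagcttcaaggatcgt

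The motif begins 119 bases before the start in Plekhf1, 82 bases before it in Pdcd1lg2, and 227 and 41 bases before it in Tmem26. Among all promoter windows of the genes tested, which run from 250 bases before to 50 after the start, 665 of 11959 (5.56%) held the motif, as did 32 of 351 windows of induced genes (9.12%) and 11 of 205 of repressed genes (5.37%). A window was found for 264 of the 340 induced genes (77.6%), under the 80% required of such a check, so the comparison between these sets is void and the shares are given as a description only. A match in the reference sequence does not show binding.

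Of the 9 receptor, kinase and adaptor genes tested, only Jak2, a kinase, passed the 2-fold threshold, rising from 78.7 and 93.4 TPM to 192 and 196 TPM (log2 fold change 1.17 ± 0.07 SE, adjusted p = 1.3e-07). Il4ra, the receptor chain that binds IL-4, was at 34.2 and 35.9 TPM in the basal libraries and 25.4 and 27.7 TPM at 6 hours, a fall of less than 2-fold that passed the test (-0.39 ± 0.07, adjusted p = 0.0012). Il13ra1, which pairs with it in the type II receptor, was lower by 0.80 on the log2 scale. Stat6 was at 124 and 135 TPM before and 122 and 115 TPM after IL-4 (-0.12, adjusted p = 0.11). The median over these 9 genes was -0.12.

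Of 18 inhibitors that act back on cytokine signalling tested, 4 were induced and 2 repressed, with a median of 0.20. Socs1, which binds and inhibits Janus kinases, was at 0.207 and 0.763 TPM in the basal libraries and at 55.9 and 53.7 TPM at 6 hours (5.26 ± 0.31, adjusted p = 6.5e-08). It stood far higher at 1 hour, at 196 and 214 TPM, and was at 39.7 and 41.5 TPM at 24 hours. Cish, another member of the SOCS family and a STAT target, rose from 1.88 and 2.25 TPM to 99.3 and 90.9 TPM (4.97 ± 0.07, adjusted p = 1.1e-12) and showed no such peak, with 103 and 98.6 TPM at 1 hour and 96.7 and 92.9 TPM at 24 hours. Both 6-hour libraries lay above both basal libraries in each gene. Socs2 (1.67 ± 0.16) and Dusp4 (2.37 ± 0.07), a MAP kinase phosphatase, were also induced, whereas the phosphatases Dusp1 (-1.29 ± 0.11) and Dusp6 (-1.10 ± 0.13) were repressed.

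Most markers of alternative activation rose. Of 27 tested, 20 were induced and 0 repressed, with a median of 1.91, and 22 were higher with an adjusted p under 0.05 at any size, while 5 did not pass the test; these genes were listed because they are known as IL-4 targets. Arg1 (chromosome 10, 24915207 to 24927470, mm10), the arginase that turns arginine into ornithine and urea, rose from 2.66 and 4.49 TPM to 178 and 166 TPM (5.27 ± 0.18, adjusted p = 5.4e-10), and it went on to 579 and 472 TPM at 24 hours. Slc7a2 (chromosome 8, 40862367 to 40922070), a transporter that brings arginine into the cell, rose from 66.2 and 73.3 TPM to 1180 and 1152 TPM (4.04 ± 0.06, adjusted p = 1.1e-12) and stood at 1240 and 1136 TPM at 24 hours. Among 18 genes of arginine and polyamine metabolism, these 2 alone passed the 2-fold threshold, while Odc1, which makes putrescine from ornithine, was higher by 0.46, and Arg2, the mitochondrial arginase, differed by -0.13 (adjusted p = 0.38).

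Rnase2a (chromosome 14, 51255262 to 51256112), a secreted ribonuclease of the eosinophil-associated family, showed the largest change of the genes named here. It was at 0.183 and 1.49 TPM in the basal libraries and at 194 and 170 TPM at 6 hours (6.73 ± 0.35, adjusted p = 2.3e-08), after 30.9 and 25.3 TPM at 1 hour. The family holds near-identical copies, and how reads shared between copies were assigned is not given in the sources used here, so its level is uncertain. Some receptors of this list started from higher levels. Mrc1, the mannose receptor, went from 144 and 149 TPM to 554 and 546 TPM (1.91 ± 0.05), and Clec7a, the beta-glucan receptor dectin, from 62.0 and 61.6 TPM to 507 and 452 TPM (2.93 ± 0.08). Cd36, a scavenger receptor for oxidized lipids, rose only from 59.2 and 63.5 TPM to 132 and 128 TPM (1.07 ± 0.05, or 0.998 after quantile normalization). Retnla, the resistin-like protein often used as an M2 marker, was listed at 0 in both basal libraries and reached only 4.47 and 2.45 TPM. Retnla, Mgl2, Ccl17 and Ocstamp passed the test under every pseudocount tried, but with 5 TPM added in place of 1 TPM their changes were under 2-fold, between 0.39 and 0.75.

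Pdcd1lg2 (PD-L2), a ligand of the inhibitory receptor PD-1, rose from 2.36 and 2.83 TPM to 55.3 and 55.4 TPM (3.97 ± 0.14, adjusted p = 8.5e-10) and was back at 20.0 and 17.1 TPM by 24 hours. Of 10 costimulatory and coinhibitory genes tested, Cd83 (2.14 ± 0.08), Cd274 (PD-L1, 1.37 ± 0.07) and Cd40 (1.27 ± 0.11) were also induced and Icosl (-1.24 ± 0.17) was repressed. Cd40 stayed low, with 1.92 and 2.61 TPM at 6 hours. The median of the list was -0.23.

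Il4i1 (chromosome 7, 44836288 to 44840809), a secreted oxidase of aromatic amino acids, rose from 8.83 and 9.88 TPM to 487 and 461 TPM (5.52 ± 0.11, adjusted p = 4.8e-12). It overlaps the gene model Gm21948, whose values followed it closely, with 9.89 and 9.11 TPM at basal and 435 and 412 TPM at 6 hours, so the reads of these 2 cannot be told apart here. Other genes among the 15 most induced were Ms4a4a, a tetraspan membrane protein, from 2.93 and 0.658 TPM to 79.6 and 58.7 TPM; Cyp1b1, a cytochrome P450, from 5.72 and 7.51 TPM to 120 and 114 TPM; and Rab3il1, an exchange factor for Rab GTPases, from 10.7 and 7.75 TPM to 130 and 125 TPM. Plekhf1, an endosomal phosphoinositide-binding protein, rose from 2.18 and 3.04 TPM to 66.3 and 55.9 TPM, and Tmem26 from 2.97 and 3.03 TPM to 68.8 and 59.3 TPM. The 15 genes were chosen with both 6-hour libraries above both basal libraries, so that separation is not a result. The log2 changes of these other genes ran from 3.67 ± 0.11 in Rab3il1 to 4.76 ± 0.31 in Ms4a4a.

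**Figure D2:**
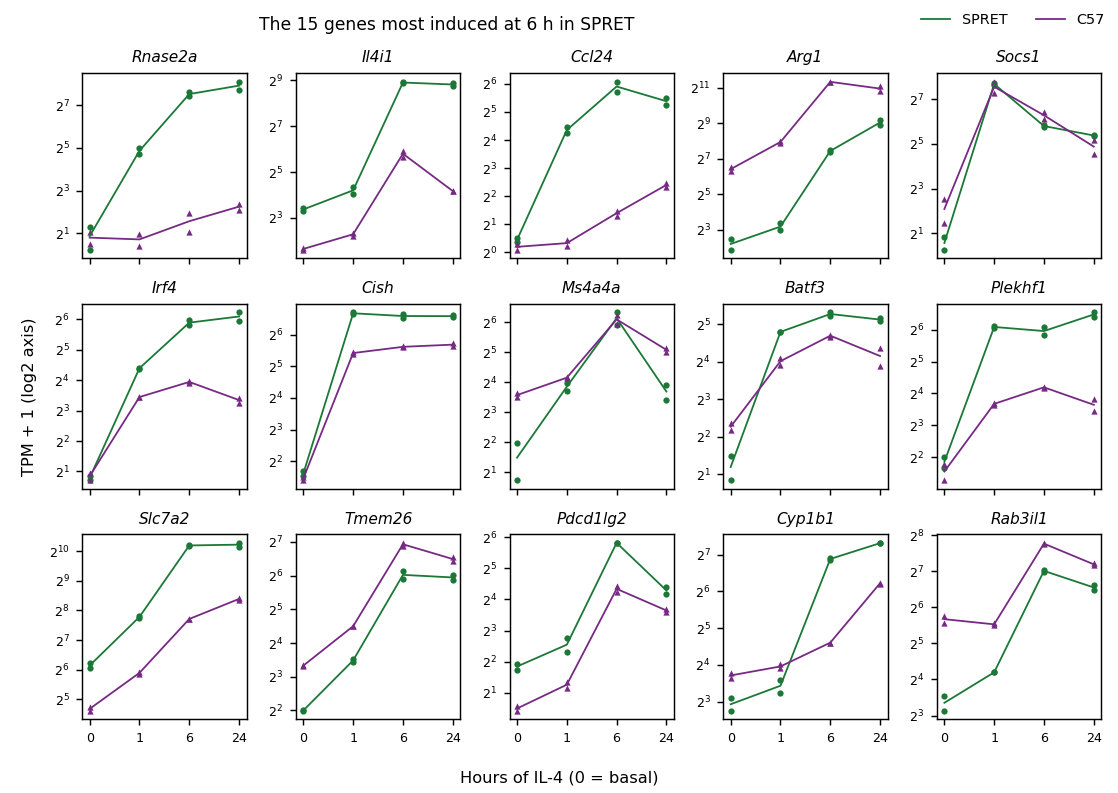
TPM + 1 on a log2 axis at 0, 1, 6 and 24 hours of IL-4 (evenly spaced, not to scale in time) for the 15 genes most induced at 6 hours in SPRET; points are single libraries, lines join the means of 2 libraries, green circles are SPRET and purple triangles C57. Socs1 stands highest at 1 hour, Cish is level from 1 hour on, Arg1 is still higher at 24 hours, and Ms4a4a and Pdcd1lg2 are lower at 24 hours than at 6.

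Transcription factors linked to IL-4 in macrophages included 9 induced and 1 repressed among 25 tested, with a median of 0.38. Irf4, which takes part in the M2 programme, rose from 0.636 and 0.820 TPM to 61.7 and 55.1 TPM (5.10 ± 0.11, adjusted p = 1.4e-11). Batf3, a basic leucine zipper partner of AP-1 and IRF factors, rose from 1.78 and 0.787 TPM to 36.4 and 38.9 TPM (4.12 ± 0.18). Egr2, a zinc finger factor, rose from 13.8 and 15.8 TPM to 145 and 149 TPM (3.23 ± 0.06, adjusted p = 4.5e-12) and was already at 165 and 171 TPM at 1 hour. Bhlhe40 (1.92 ± 0.04), Pparg (1.95 ± 0.12), Nfil3 (1.50 ± 0.08), Cebpa (1.42 ± 0.09), Myc (1.40 ± 0.08) and Id2 (1.30 ± 0.07) were induced too. The order in time differed. Myc and Nfil3 stood highest at 1 hour, Myc with 114 and 107 TPM against 33.2 and 31.3 TPM at 6 hours, whereas Pparg, the nuclear receptor of lipid metabolism, rose from 3.42 and 2.42 TPM to 15.7 and 12.5 TPM at 6 hours and 20.8 and 21.5 TPM at 24 hours. Cebpa and Id2 were lower at 1 hour than at basal (log2 changes -0.45 and -1.47, adjusted p = 0.0081 and 3.6e-08), Id2 with 16.5 and 17.3 TPM against 47.3 and 49.9 TPM, and Id2 then reached 130 and 113 TPM at 6 hours. Klf4 was higher by 0.46, under 2-fold, and Bhlhe41 was repressed (-1.04 ± 0.09, and -0.92 without the first 6-hour library).

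Among genes of MYC and ribosome biogenesis most changes were small. Of 28 tested, 18 were higher and 1 (Mxd1, an antagonist of MYC) was lower with an adjusted p under 0.05, with a median of 0.41, and Myc alone passed 2-fold. Nop58 (0.85), Rrp12 (0.77) and Gnl3 (0.75), a nucleolar GTPase, were among those that passed the test. In the unfolded protein response 12 of 22 were higher and 1 lower, with a median of 0.33 and Atf5 alone past 2-fold, while 12 of 21 NRF2 and antioxidant genes were lower and 2 higher, with a median of -0.29. Sod2, the mitochondrial superoxide dismutase, was the one antioxidant gene repressed by more than 2-fold (-1.14 ± 0.08). Mt2 was the one induced past it (1.37, or 0.57 with 5 TPM added in place of 1 TPM).

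Most chemokines that passed the test rose, and most of their receptors that passed it fell. Of 22 chemokines tested, 11 were induced and 1 repressed, with a median of 0.94, and of 12 chemoattractant receptors 0 were induced and 3 repressed, with a median of -0.72. Ccl24 (chromosome 5, 135569937 to 135573043), an eotaxin that draws eosinophils, rose from 0.294 and 0.433 TPM to 66.5 and 51.2 TPM (5.45 ± 0.15, adjusted p = 9.9e-11). Ccl22, a ligand of CCR4 on type 2 helper cells, rose from 0.836 and 1.08 TPM to 13.6 and 13.8 TPM (2.91 ± 0.12) and further to 148 and 130 TPM at 24 hours, and Ccl17, which shares that receptor, went from 0 in both basal libraries to 1.95 and 4.55 TPM and then 42.2 and 31.5 TPM. Ligands of CXCR2, which draw neutrophils, also rose. Cxcl3 went from 50.8 and 63.4 TPM to 482 and 486 TPM (3.07 ± 0.17), Cxcl2 from 22.4 and 26.0 TPM to 107 and 87.4 TPM (1.96 ± 0.10) and Cxcl1 from 11.9 and 12.5 TPM to 39.2 and 38.1 TPM (1.59 ± 0.14). Ccl9 (2.69 ± 0.06) and Ccl2 (2.34 ± 0.22) were induced as well. The calls of Ccl4 and Ppbp need the first 6-hour library, since without it their changes were under 2-fold (0.69 and 0.93).

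Of all genes named, Cx3cr1 (chromosome 9, 120048683 to 120068296), the receptor of fractalkine, showed the largest fall. It was at 28.4 and 30.7 TPM in the basal libraries and at 0.942 and 0.541 TPM at 6 hours (-4.14 ± 0.14, adjusted p = 6.1e-10). At 1 hour it was still at 21.7 and 21.4 TPM, and at 24 hours it was at 0.017 and 0.219 TPM. C5ar1, the receptor of complement C5a, fell from 60.4 and 61.6 TPM to 12.03 and 12.2 TPM (-2.24 ± 0.09) and Ccr2, the receptor that brings monocytes out of the marrow, from 5.86 and 5.41 TPM to 0.985 and 1.46 TPM (-1.59 ± 0.19). Cx3cr1 is also 1 of the macrophage markers; of the others, Adgre1 (F4/80) and Csf1r were lower by 0.30 and 0.31.

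Several receptors for bacterial products were repressed. Fpr1 and Fpr2, which detect formylated peptides, fell from 23.6 and 29.7 TPM to 2.68 and 3.73 TPM (-2.72 ± 0.12) and from 15.3 and 13.6 TPM to 2.82 and 1.35 TPM (-2.37 ± 0.24). Among 19 Toll-like receptors and adaptors, 3 were repressed and 1 induced, with a median of -0.06. Tlr2 fell from 231 and 259 TPM to 52.0 and 58.8 TPM (-2.13 ± 0.09), and Cd14, the coreceptor for lipopolysaccharide, from 699 and 779 TPM to 183 and 206 TPM (-1.92 ± 0.10). Irak3, an inhibitor of the same pathway, fell by 1.77 on the log2 scale, and Tlr8, an endosomal receptor for RNA, rose by 1.52 ± 0.06. Nlrp3, the sensor of the inflammasome, fell from 27.9 and 30.5 TPM to 5.14 and 4.41 TPM (-2.39 ± 0.14, adjusted p = 5.1e-08), and Il1b, the cytokine that the inflammasome matures, from 158 and 173 TPM to 62.7 and 66.4 TPM (-1.34 ± 0.17). Of 16 inflammatory cytokines and enzymes tested, 4 were repressed and 1 induced. The induced one was Csf1 (M-CSF), the growth factor of macrophages, which rose from 5.59 and 6.5 TPM to 48.1 and 47.9 TPM (2.80 ± 0.08). The repression of Tnfsf9 was under 2-fold without the second 6-hour library (-0.79).

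C-type lectins and scavenger receptors split in both directions, with 4 induced and 6 repressed of 22 tested and a median of -0.23. Those induced were Clec7a, Mrc1, Mgl2 and Cd36. The largest fall was that of Clec12a, an inhibitory receptor (-1.90 ± 0.11), followed by Stab1 (-1.55 ± 0.07), Clec4e (Mincle, -1.35 ± 0.08), Clec4n (-1.31 ± 0.09), Clec4d (-1.15 ± 0.10) and Colec12 (-1.05 ± 0.10). In Clec4e the levels were high before and after, at 467 and 487 TPM and then 184 and 189 TPM.

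Of the other genes among the 10 most repressed, Sdc1, the heparan sulfate proteoglycan syndecan, fell from 109 and 110 TPM to 18.0 and 18.3 TPM (-2.52 ± 0.06, adjusted p = 1.3e-11). Thbs1, an extracellular matrix glycoprotein, fell from 20.3 and 22.8 TPM to 1.84 and 2.89 TPM (-2.76 ± 0.13) and was at 8.40 and 7.77 TPM at 24 hours. Arhgap24, a GTPase-activating protein, fell from 22.2 and 20.2 TPM to 2.26 and 2.12 TPM (-2.80 ± 0.12) and was at 6.27 and 8.75 TPM at 24 hours. Tle3, a Groucho-type corepressor, fell from 21.6 and 21.4 TPM to 3.25 and 3.45 TPM (-2.37 ± 0.11), and Ddx60, a helicase of antiviral sensing, from 25.1 and 23.2 TPM to 4.06 and 3.80 TPM (-2.35 ± 0.16). Tmem150b fell from 14.6 and 18.4 TPM to 3.25 and 1.99 TPM (-2.29 ± 0.24).

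**Figure D3:**
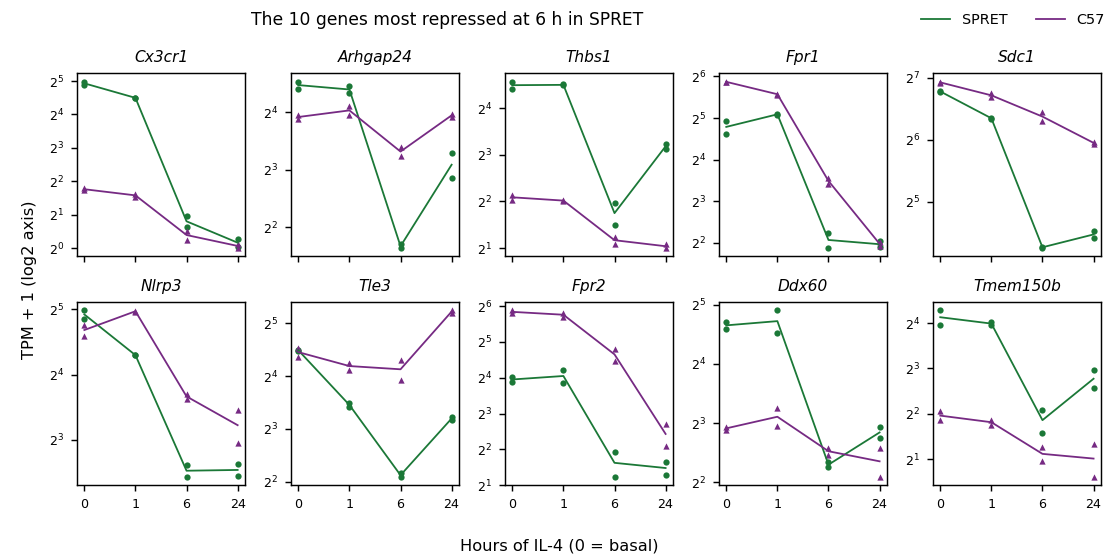
TPM + 1 on a log2 axis at 0, 1, 6 and 24 hours of IL-4 (evenly spaced) for the 10 genes most repressed at 6 hours in SPRET; points are single libraries, lines join means of 2 libraries, green circles are SPRET and purple triangles C57. In SPRET, most of these genes are near their basal level at 1 hour, and Thbs1, Arhgap24 and Tle3 are higher again at 24 hours than at 6.

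The lists of interferon-stimulated, interferon-inducible GTPase, MHC class II and cholesterol genes held 0 genes past 2-fold. With 2.81% of all genes induced and 1.75% repressed, lists of this size hold few such genes, so nothing particular is read from these counts. Of 32 interferon-stimulated genes tested, 0 were called in either direction, with a median of 0.14, and 7 were higher and 1 lower with an adjusted p under 0.05, such as Stat2 (0.90) and Usp18 (0.56). The 12 interferon-inducible GTPases gave 0 calls, with 5 higher at any size. Of 8 MHC class II genes, 4 were higher and 0 passed 2-fold; H2-Aa, H2-Ab1 and H2-Eb1 differed by -0.00, -0.05 and 0.02, and Ciita, the class II transactivator, was higher by 0.63. Of 25 genes of cholesterol synthesis and uptake, 20 did not pass the test at any size and the range was -0.41 to 0.31. Among 31 cell cycle genes, the inhibitor Cdkn1a (p21) was the 1 gene called (2.10 ± 0.11, from 37.8 and 44.6 TPM to 184 and 173 TPM). Among 20 genes of lipid uptake and oxidation, Cd36, Fabp4 (1.49 ± 0.07) and Ppargc1b (1.25 ± 0.11) were induced, the last a coactivator of mitochondrial genes.

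**Figure D4:**
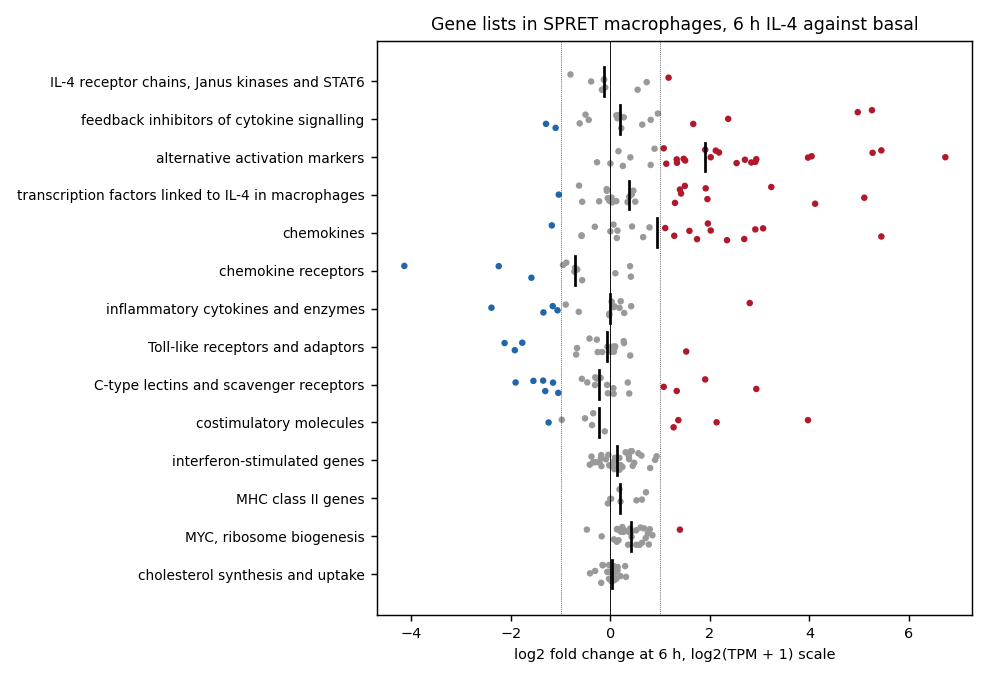
Log2 fold change at 6 hours against basal in SPRET for the tested members of 14 gene lists (x axis; dotted lines at 2-fold up and down, black bar at the list median); red points were induced, blue repressed and grey neither. Alternative activation markers (median 1.91) and chemokines (0.94) lie to the right, chemokine receptors (-0.72) to the left, and interferon-stimulated, MHC class II and cholesterol genes close to 0.

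The 6-hour values were read beside the other times of the same SPRET cells, which share the basal libraries. At 1 hour, 171 genes were higher (1.41%) and 57 lower (0.472%) than at basal. Of the 340 genes induced at 6 hours, 216 had their highest mean at 6 hours, 35 at 1 hour and 89 at 24 hours, and of the 212 repressed genes 103 had their lowest mean at 6 hours, 16 at 1 hour and 93 at 24 hours. The choice of these genes by their 6-hour value favours that time. The median change of the induced genes was 0.56 at 1 hour, 1.47 at 6 hours and 1.13 at 24 hours, and of the repressed genes -0.27, -1.29 and -1.31. Tested directly, 84 genes were higher (0.695%) and 140 lower (1.16%) at 24 than at 6 hours, a share of 37.5% higher that was 50.0% after median-ratio scaling and 47.4% after quantile normalization. Mmp12, the macrophage elastase, went on rising after 6 hours, from 27.4 and 23.2 TPM at basal through 102 and 85.6 TPM to 865 and 824 TPM at 24 hours (24 against 6 hours, 3.16, adjusted p = 9.7e-10). Ms4a4a fell back from 79.6 and 58.7 TPM to 14.1 and 9.63 TPM (-2.45, adjusted p = 0.00012). Ripk2, a kinase downstream of NOD receptors, peaked earlier, with 14.5 and 14.9 TPM at basal, 120 and 125 TPM at 1 hour and 39.7 and 39.0 TPM at 6 hours (1.36 ± 0.08).

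The SPRET libraries of the 5-strain panel share no library with the time course and give the 24-hour response a second time. In them 276 of 11907 genes were higher (2.32%) and 193 lower (1.62%), against 317 higher (2.62%) and 362 lower (2.99%) of 12088 at 24 hours in the time course. Of the genes induced at 6 hours, 328 could be tested there and 189 (57.6%) were called higher and 0 lower, with 318 changes above 0 and a median of 1.16. Of the repressed genes, 203 could be tested and 97 (47.8%) were called lower, with a median of -0.94. The 1 called higher was the small nucleolar RNA gene Snord45c (1.36, adjusted p = 0.0031, against -2.63 at 6 hours), singled out after its values were seen. The median of all genes was 0.11 there and 0 after median-ratio scaling, a shift of -0.11, and that scaling moved the higher calls from 58.8% to 48.0% of all calls. Arg1 rose by 6.83 ± 0.16, Rnase2a by 7.18 ± 0.18, Ccl24 by 6.53 ± 0.15 and Mmp12 by 4.76 ± 0.09 in these libraries, and Cx3cr1 fell by 2.07. Thbs1 differed by -0.44 ± 0.10 in them at 24 hours. Its fall of 2.76 was that at 6 hours, and in the time course it was higher again at 24 hours than at 6.

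The same 6 hours of IL-4 were measured in C57 macrophages, and the difference between the strains was tested as an interaction in the model. In C57, 188 genes were higher (1.56%) and 69 lower (0.571%). Of the genes induced in SPRET, 104 were also induced in C57, which is 30.6% of the SPRET list and 55.3% of the C57 list. For repressed genes the overlap was 29, or 13.7% of the SPRET list and 42.0% of the C57 list. In C57 the median log2 change was 0.69 for the genes induced in SPRET and -0.57 for those repressed. Over all genes tested it was 0 in C57, so genes not called in C57 may still have changed there. The 2 gene sets were chosen by their change in SPRET, which favours larger changes in SPRET than in C57. Snora28 was the 1 gene induced in SPRET (1.64) and repressed in C57 (-1.58, adjusted p = 0.014), again singled out after its values were seen. The log2 change was higher in SPRET for 164 genes (1.36%) and lower for 126 (1.04%) at a difference over 2-fold with an adjusted p under 0.05. Levels between strains need care, since reads were mapped to a genome of each strain. Gapdh was between 232 and 287 TPM in all SPRET libraries and between 1.21 and 2.27 TPM in all C57 libraries; the assignment of reads to genes with many copies was not tested.

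For several genes of the IL-4 response the difference did not pass the test, which does not show equal responses. It was 0.34 ± 0.26 in Arg1 (adjusted p = 0.48), 0.13 ± 0.20 in Pdcd1lg2 (adjusted p = 0.76) and 0.98 ± 0.44 in Socs1 (adjusted p = 0.20). Arg1 stood at 77.0 and 90.8 TPM at basal and 2553 and 2592 TPM at 6 hours in C57. Slc7a2 rose more in SPRET (difference 1.02 ± 0.09, adjusted p = 1.8e-05), as did Irf4 (2.00 ± 0.16) and Egr2 (1.87 ± 0.09). C57 Egr2 began at 63.2 and 64.9 TPM and reached 168 and 165 TPM, against 13.8 and 15.8 TPM at basal and 145 and 149 TPM at 6 hours in SPRET. Cish differed by 0.82 ± 0.11 (adjusted p = 0.00028), and Ripk2 by -0.24 ± 0.11 (adjusted p = 0.22). Il4ra moved in opposite directions, lower in SPRET and higher in C57 (44.4 and 42.5 TPM from 32.1 and 34.3 TPM), with a difference of -0.76 ± 0.10 (adjusted p = 0.00035).

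The differences that favoured SPRET most were those of Rnase2a (6.00 ± 0.50, adjusted p = 1.2e-05), Ccl24 (4.25 ± 0.21, adjusted p = 1.8e-07), Serpina3i (3.24 ± 0.20), Cyp1b1 (3.07 ± 0.17), Serpinb2 (2.88 ± 0.27) and Ifi202b (2.61 ± 0.19). Ccl24 reached only 1.48 and 1.79 TPM in C57 at 6 hours. Serpina3i and Serpinb2, inhibitors of serine proteases, went from 1.04 and 0.679 TPM to 19.2 and 15.6 TPM and from 2.44 and 1.70 TPM to 20.8 and 19.5 TPM in SPRET, both after a peak at 1 hour, and were under 1 TPM in every C57 library at 6 hours. Ifi202b, a DNA-binding protein of the interferon-inducible HIN family, was listed at 0 in both C57 groups. Rnase2a and the Serpina3 genes belong to families with near-identical copies.

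The differences that favoured C57 most were those of Msx3 (-3.89 ± 0.20, adjusted p = 2.2e-07), Ccl12 (-3.18 ± 0.38), Serpina3g (-3.18 ± 0.39), Lipn (-2.92 ± 0.24), Ccl7 (-2.90 ± 0.41) and Cx3cr1 (-2.76 ± 0.20). Msx3, a homeobox gene, was listed at 0 in both basal SPRET libraries and at 0.048 and 0.127 TPM at 6 hours, whereas in C57 it went from 1.25 and 1.72 TPM to 36.6 and 41.2 TPM. Ccl12 and Ccl7, both chemoattractants of monocytes, were at 0.831 and 0 TPM and at 3.06 and 4.01 TPM in SPRET at 6 hours, against 32.8 and 33.0 TPM and 309 and 294 TPM in C57. With 0.1 TPM added in place of 1 TPM, the differences in Ccl12, Ccl7 and Serpina3g no longer passed the test. Lipn, of the acid lipase family, was at 20.1 and 14.2 TPM and then 13.3 and 10.3 TPM in SPRET, against 16.9 and 15.1 TPM and then 87.8 and 93.2 TPM in C57. The negative value of Cx3cr1 comes from a deeper fall in SPRET, from a higher level, since C57 fell from 2.45 and 2.33 TPM to 0.431 and 0.189 TPM. From so low a level, Cx3cr1 had little room to fall in C57 on the log2(TPM + 1) scale, which limits this comparison.

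Cxcl1, Cxcl2 and Cxcl3 differed by 2.24, 2.37 and 2.60 in favour of SPRET (adjusted p = 2.3e-05, 1.0e-06 and 2.9e-05), with C57 changes of -0.65, -0.41 and 0.47. In the whole chemokine list the difference passed the test and 2-fold in favour of SPRET for 8 genes and of C57 for 3. Mmp12 rose in SPRET by 1.85 ± 0.09 and changed by -0.04 in C57, where it was already at 1978 and 1816 TPM at basal (difference 1.88 ± 0.13, adjusted p = 2.3e-06). Sdc1 fell by 0.55 in C57 against 2.52 in SPRET (difference -1.97 ± 0.08, adjusted p = 4.8e-08), and Treml2, a receptor of the TREM family, rose by 0.64 in C57 and 2.07 in SPRET (1.43 ± 0.15).

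**Figure D5:**
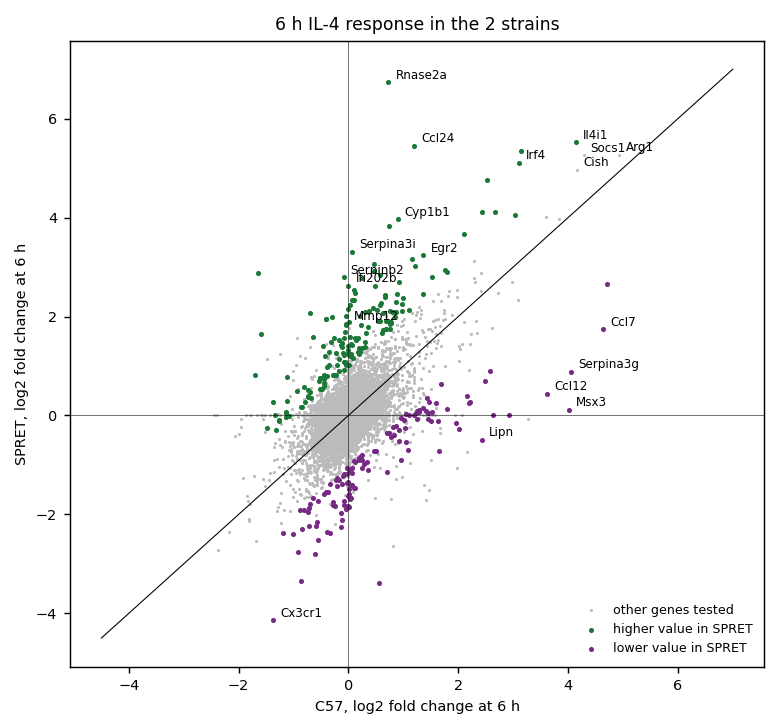
Each point is 1 of the 12088 genes tested, with the log2 fold change at 6 hours of IL-4 against basal in C57 on the x axis and in SPRET on the y axis; the line marks equal changes, and green (164) and purple (126) points have a higher or a lower value in SPRET by the interaction test. Rnase2a, Ccl24 and Cyp1b1 lie far above the line, Msx3, Ccl7 and Lipn far below it, and Arg1 close to it.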

How the data were processed

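Polyadenylated RNA was sequenced from BMDMs. The authors mapped reads with STAR to a genome of each strain made with MMARGE, shifted positions to mm10, and deposited TPM per gene from HOMER (exon reads, transcripts of a gene condensed). The listed genes of a time-course library add up to between 602020 and 655054 TPM. Deposited columns of fold changes and p-values, made by the authors with DESeq2, were not used, and 0 sample columns were unmatched. Without counts per gene no counting interval can be given, and precision comes from 2 libraries a group (5.70 M to 24.0 M tags).

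log2(TPM + 1) was fitted with limma 3.58.1 (R 4.3.3) in 1 model of the 16 time-course libraries, with an empirical Bayes trend, keeping genes that reached 1 TPM in 2 libraries or more; the 5-strain table had its own model. P-values are two-sided and Benjamini-Hochberg adjusted over all genes tested, and calls need an adjusted p under 0.05 and a change over 2-fold. In simulated data with 12088 genes, 100% of log2 changes of 2 and 88.0% of -2 were called, and 0.0673% of the genes left as they were. The simulation assumed the same spread for every gene and planted no change in genes of low basal level. These shares are therefore not error rates of the real calls. Named genes are the 15 largest rises and 10 largest falls with separate libraries and a mean of at least 5 TPM in either group, the 6 largest strain differences each way, called members of 37 gene lists with up to 4 further examples each, and genes named in the study. RIKEN, Gm, microRNA and small nucleolar genes were passed over. Some genes that the rule names are not reported here. Members and lists were chosen with earlier results of these data known. All 628 list symbols are in the table, and promoter sequences are from RefSeq. Figures used matplotlib 3.10.9.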

Additional observations from a re-analysis of the deposited data

Results flagged for a closer look

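The response to 6 hours of IL-4 differed between SPRET and C57 for 33 of the genes whose strain difference is given here or above, by the interaction test in limma at an adjusted p under 0.05 and a difference over 2-fold; values are SPRET minus C57 on the log2 scale. Among induced genes the difference was 6.00 in Rnase2a, 4.25 in Ccl24, 3.24 in Serpina3i, 3.07 in Cyp1b1, 2.88 in Serpinb2, 2.61 in Ifi202b, 2.60 in Cxcl3, 2.37 in Cxcl2, 2.25 in Ms4a4a, 2.24 in Cxcl1, 2.00 in Irf4, 1.88 in Mmp12, 1.87 in Egr2, 1.69 in Batf3, 1.57 in Rab3il1, 1.44 in Plekhf1, 1.43 in Treml2, 1.39 in Il4i1 and 1.02 in Slc7a2. Among genes that fell further in SPRET it was -2.76 in Cx3cr1, whose low basal level in C57 limited its fall there. In the others it was -2.20 in Arhgap24, -2.04 in Tle3, -1.97 in Sdc1, -1.96 in Ddx60, -1.84 in Thbs1, -1.44 in Tmem150b, -1.38 in Nlrp3 and -1.17 in Fpr2. Among genes that rose further in C57 it was -3.89 in Msx3, -3.18 in Ccl12, -3.18 in Serpina3g, -2.92 in Lipn and -2.90 in Ccl7. With 5 TPM added in place of 1 TPM, the differences in Treml2 (0.76) and Nlrp3 (-0.98) were under 2-fold. Many of these genes were chosen by their SPRET change at 6 hours, or by the strain difference itself, in the same libraries. That choice favours large differences, so their number and size are not a result.

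The value of Fpr2 had an adjusted p of 0.047 and missed the threshold when any single library other than the first 6-hour SPRET library was left out, with the replicate block (adjusted p = 0.061), in a fit of the compared groups alone (0.080), without a filter on low values (0.11) and with 5 TPM added (0.27). That of Tmem150b (adjusted p = 0.016) missed it without the second 6-hour SPRET library, the second basal SPRET library, the second 6-hour C57 library or the first basal C57 library, with adjusted p between 0.060 and 0.067, and with 0.1 TPM added (0.14). The difference in Slc7a2 fell just under 2-fold under several settings, to 0.94 at the lowest, and still passed the test.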

How the results depend on the processing

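The calls at 6 hours were stable to most settings but not to a pseudocount of 5 TPM. That setting kept 55.4% of them and 47.9% of the calls for the difference from C57. Between 89.9% and 98.7% of the 552 calls were kept under a higher filter or none, both scalings, a robust prior, the smaller models and each library left out, and 96.9% with a pseudocount of 0.1 TPM. With a pseudocount of 5 TPM the counts were 204 higher and 102 lower at 6 hours, 83 and 68 for the difference from C57, 32 and 63 for 24 against 6 hours, and 157 and 93 in the 5-strain libraries; with 0.1 TPM they were 244 lower for 24 against 6 hours and 431 and 331 in the 5-strain libraries. A larger pseudocount compresses low genes by construction. Leaving out single libraries gave 332 to 376 higher and 215 to 236 lower at 6 hours, 154 to 184 and 113 to 138 for the difference from C57, 73 to 98 and 124 to 163 for 24 against 6 hours, and 265 to 278 and 193 to 207 in the 5-strain libraries. Where this leaves 1 library in a group, that library is assumed to vary like the other groups. The SPRET minus C57 difference of Tmem26 at 6 hours, which is not given above, turned negative with 5 TPM added (-0.057). With 3 bases between TTC and GAA 9.47% of induced, 10.4% of repressed and 8.19% of all genes had a match, against 11.4%, 6.71% and 6.68% with 4. These shares count genes with a promoter window, not windows as above. The comparison between the sets is void here too, so they are a description only.

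A replicate block gave 340 higher and 211 lower at 6 hours and kept 99.6% of the calls. The deviations of same-numbered libraries correlated with r of 0.087 between SPRET basal and 6 hours and from -0.143 to 0.266 over the 12 pairs of groups within a strain, over 0.1 in 3 of them, so the numbers were not taken to pair the libraries. In a fit of the 4 libraries alone (320 higher, 192 lower), Ccl4, Ccl7, Ppbp, Tnfsf9 and Gdf15 no longer passed the test, and Gdf15 was under 2-fold without the first 6-hour or the first basal library. Counts per gene are not in the table used here, so counting error at the 5.70 M tags of the second 6-hour library was not separated from other spread.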

Other observations

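Some members of gene families outside the lists above, picked after their values were seen, were also called at 6 hours in SPRET. Over all genes tested, 2.81% were induced and 1.75% repressed. The median was 0.80 for ribonuclease A genes, 0.32 for serpins and 0.15 for Fc receptors. It was 0.11 for vacuolar ATPase subunits and 0.06 for P2 purine receptors. The calls are those of single members and are not read as results about the families. Of 8 ribonuclease A genes tested, 4 were induced and 0 repressed, all on chromosome 14: beside Rnase2a these were Rnase4 (62.4 and 58.0 TPM to 386 and 366 TPM, 2.62 ± 0.10), Ang (2.40 ± 0.23), an angiogenic ribonuclease whose gene model overlaps Rnase4, and Rnase6 (1.20 ± 0.21). Of 20 serpins, 5 were induced and 1, Serpinf1, was repressed (-1.41 ± 0.24). Fcgr2b, the inhibitory receptor for IgG, rose from 113 and 122 TPM to 678 and 672 TPM (2.52 ± 0.08) and was the 1 gene called among 6 Fc receptors.

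Of 20 subunits of the vacuolar ATPase, 2 were induced: Atp6v0a1, from 137 and 151 TPM to 778 and 750 TPM (2.40 ± 0.05), and Atp6v0d2, from 21.3 and 18.4 TPM to 74.2 and 72.5 TPM (1.84 ± 0.07). Among 11 P2 purine receptors, P2ry1 rose (2.46 ± 0.08) and P2ry13 fell (31.0 and 33.5 TPM to 5.99 and 6.20 TPM, -2.23 ± 0.16). Nup62, a nucleoporin, went from 26.0 and 29.9 TPM to 96.5 and 88.1 TPM. Whether reads of another gene model, such as Il4i1 or Gm21948, add to its value was not tested.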
